A study of Mus musculus with 9 samples.

Results

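The turbinates of the nose are thin scrolls of bone, still partly cartilage in young animals, that carry the main olfactory epithelium (MOE). Because the MOE comes with tissue lying under it, RNA from cartilage and bone cells is part of such a sample. Counts were examined for 9 genes of cartilage and bone matrix chosen by name: Col1a1, Col1a2, Col2a1, Acan, Bglap, Ibsp, Sp7, Runx2 and Dmp1. All 9 were found among the 24421 genes with raw counts, and all 9 were among the 19775 genes that had at least 10 counts over all libraries and were tested.

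The libraries came from whole MOE of P14 mice, labelled C57BL/6, of 1 line in which CRISPR-Cas9 editing had removed TAAR enhancer 2, a regulatory element of the trace amine-associated receptor genes. There were 3 wild-type (WT) libraries with the enhancer intact, 3 heterozygous (het) libraries with 1 deleted allele and 3 homozygous (homo) libraries with both alleles deleted. Within each genotype the libraries carried the replicate numbers 1, 2 and 3, and the labels do not say what a number stands for. The study describes the genotypes as littermates and gives the number of replicates as 3 mice. Mice of both sexes were used in the study, and the labels give no sex. The study also describes its mouse lines as being of mixed strain background, which the labels do not mention.

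Bone is laid down by osteoblasts, which are specified by the transcription factors Runx2 and Sp7 (osterix) and secrete a matrix that is mostly type I collagen, a fibre made of the Col1a1 and Col1a2 chains. Mineral-binding proteins such as bone sialoprotein (Ibsp) and osteocalcin (Bglap) are added as the matrix hardens, and osteoblasts that become buried in it turn into osteocytes, which make Dmp1. Cartilage has a different matrix, built on type II collagen (Col2a1) and the large proteoglycan aggrecan (Acan), and in growing facial skeleton it is gradually replaced by bone. Type I collagen is also made by fibroblasts, so it is not particular to bone.

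Total counts per library ran from 20527992 to 32262005. Replicate number 1 was the shallowest library of every genotype, at 20527992 to 22292647 counts against 24905135 to 32262005 for numbers 2 and 3. Levels are given as CPM, that is, counts relative to the TMM-adjusted size of each library, and 3 counts corresponded to 0.0928 to 0.147 CPM. The lowest member value in any library was 12.5 CPM, far above that floor. Xist, an RNA of female cells, was at 2458 and 3078 CPM in WT replicates 1 and 2. It was at 2344 in het replicate 2 and at 2929 and 2642 in homo replicates 2 and 3. The other libraries held 1.18 to 1.94 CPM, so Xist level was not balanced over genotypes or replicate numbers. Summed CPM of 8 genes of mature olfactory neurons lay between 6541 and 7537 in all libraries, so neuronal RNA in sum was present at similar levels throughout. Omp and Gnal made up the largest part of that sum. Gng13 of the same list did vary, at 206 to 217 CPM in number 1 and 64.5 to 106 in the other libraries. In whole tissue, fewer cells of a type and less RNA per cell cannot be told apart.

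Type I collagen was among the most abundant RNA in the tissue. Col1a2 had the highest mean CPM of all tested genes and Col1a1 the fourth highest, with 4237 ± 890 and 3524 ± 1091 CPM (SD, n = 9). The Ibsp mean ranked 88th at 697 ± 134 CPM and the Dmp1 mean 572nd at 263 ± 34.3 CPM. The other 5 members were moderate, with mean CPM of 130 ± 101 for Col2a1, 70.7 ± 10.1 for Runx2, 62.3 ± 9.10 for Sp7, 48.3 ± 19.2 for Acan and 37.7 ± 7.47 for Bglap.

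Between genes, levels were compared as CPM per kilobase of the longest annotated transcript. On this scale the mean level fell from 792 ± 166 for Col1a2 and 594 ± 184 for Col1a1 to 337 ± 65.0 for Ibsp (SD, n = 9). Dmp1 at 95.0 ± 12.4 and Bglap at 85.6 ± 17.0 followed, and their ranges over libraries overlapped. Col2a1 at 25.5 ± 19.9 and Sp7 at 20.1 ± 2.94 also overlapped, and Runx2 at 10.9 ± 1.56 and Acan at 6.56 ± 2.61 closed the order, again with overlapping ranges. The order of the leading pair depended on the length used, since with the bases of all annotated exons Col1a1 stood at 537 ± 166 and Col1a2 at 341 ± 71.7, beside Ibsp. By transcript length, Acan was the matrix gene with a mean below both transcription factors, and by all exons Col2a1, at 14.1 ± 11.0, also had a mean below that of Sp7, at 18.3 ± 2.68.

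The members lie on 7 chromosomes of mm10, and all are protein coding. Col1a1 is at chr11:94936224-94953042 on the plus strand and Col1a2 at chr6:4504814-4541544 on the plus strand. Col2a1 is at chr15:97975602-98004695 and Sp7 at chr15:102356606-102367182, both on the minus strand. Acan is at chr7:79053483-79115099 on the plus strand, Runx2 at chr17:44495987-44814797 on the minus strand and Bglap at chr3:88383501-88384464 on the minus strand. Dmp1 at chr5:104202613-104214102 and Ibsp at chr5:104299171-104311469 are near neighbours on the plus strand, in the cluster of small secreted mineral-binding proteins that also holds Mepe and Spp1.

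Counting was unambiguous for most members. Of all 50-base stretches of their transcripts, at least 99.5% were unique for 8 members, but only 43.4% for Bglap, which shares the rest with its neighbouring copies Bglap2 and Bglap3. How reads that fit several genes were treated is not given in the sources used here, so the Bglap counts are uncertain. Exons of Runx2 share 519 bases with the antisense transcript Runx2os1, which was not among the counted genes.

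**Figure D1:**
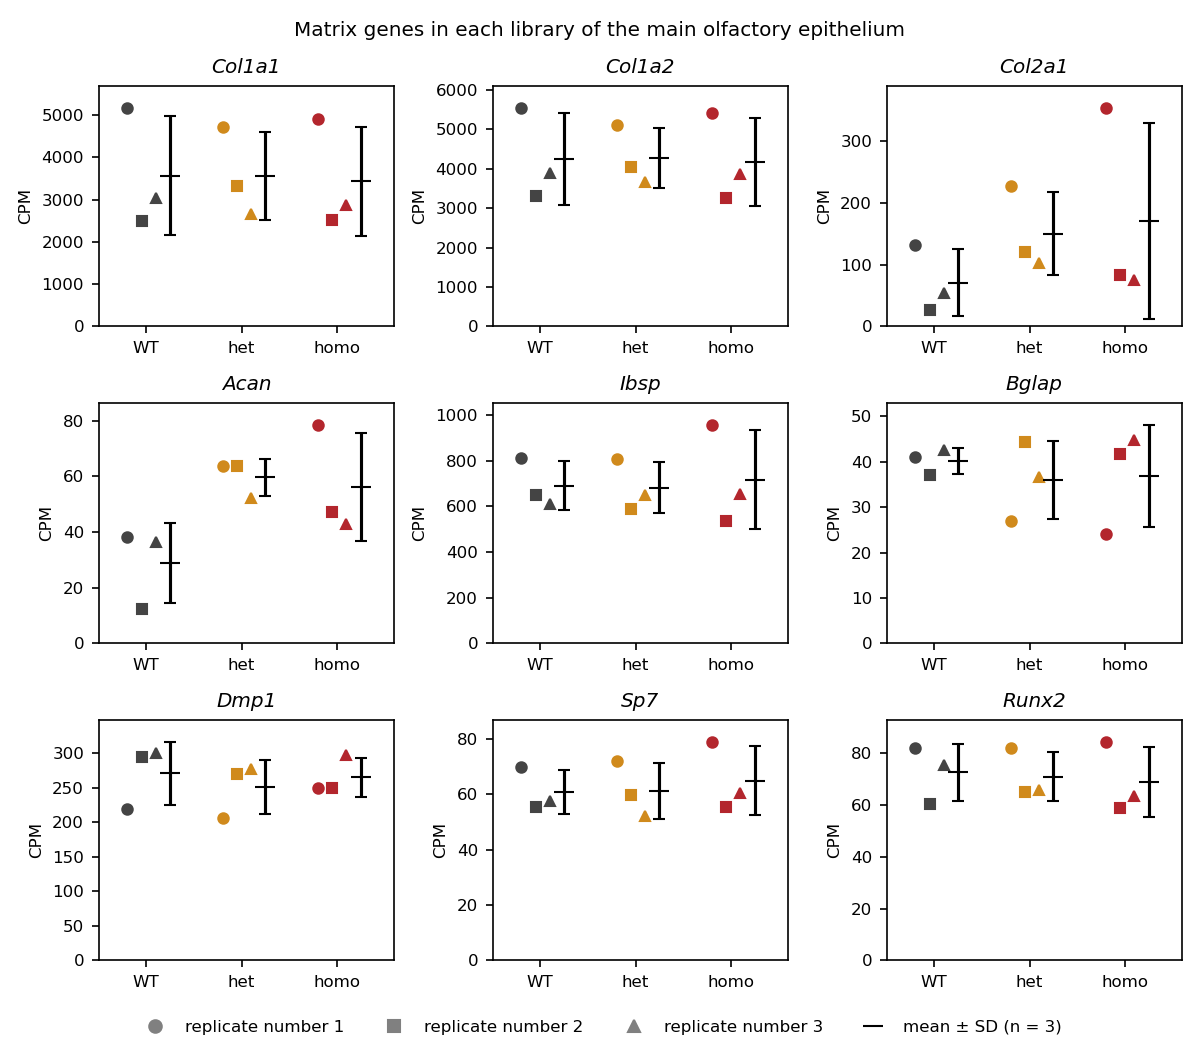
Level of each of the 9 genes in every library, in CPM on linear axes from 0, by genotype, with the marker shape giving the replicate number and the bar the mean ± SD of 3 libraries. Replicate number 1 (circles) is the highest library of its genotype for Col1a1, Col1a2, Col2a1, Ibsp, Sp7 and Runx2 in all 3 genotypes, and for Acan every WT library lies below every het and homo library.

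The plot of levels by library sets every member out by genotype and by replicate number, which are taken in turn. The design compares genotypes, and this comparison asks whether loss of the enhancer, which serves olfactory receptor genes, was accompanied by a difference in the skeletal tissue of the sample. No member passed. With edgeR's quasi-likelihood test, a Benjamini-Hochberg adjusted p under 0.05 and a fold over 1.5, 0 of 9 members passed between homo and WT (background 0.0202% of all tested genes), between het and WT (background 0%) or between homo and het (background 0.00506%). In the test for any genotype difference, which needed only the adjusted p, 0 of 9 passed as well (background 0.00506%). At an unadjusted p under 0.05, 1 member passed between homo and WT, 1 between het and WT and 0 between homo and het, beside 3.45%, 1.28% and 0.662% of all tested genes, and DESeq2 and limma-voom also passed 0 members after adjustment.

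Type I collagen was level across genotypes. Col1a1 was at 5174, 2492 and 3042 CPM in WT replicates 1, 2 and 3, at 4710, 3323 and 2670 in het and at 4907, 2529 and 2871 in homo. Col1a2 was at 5549, 3313 and 3884 CPM in WT, at 5118, 4058 and 3654 in het and at 5423, 3259 and 3873 in homo. The 3 genotypes overlapped fully for both chains, and the spread within a genotype was far larger than any difference between genotypes. The log2 fold change of homo over WT was -0.05 ± 0.34 (SE) for Col1a1 and -0.02 ± 0.25 for Col1a2, both at an adjusted p of 1 in edgeR.

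The cartilage genes had their largest values in mice carrying the deletion, without passing the adjusted test. Acan, the proteoglycan that holds water in cartilage, was at 38.2, 12.5 and 36.3 CPM in WT replicates 1, 2 and 3, at 63.5, 63.6 and 52.1 in het and at 78.5, 47.1 and 42.7 in homo. Every WT library was below every het and homo library, a separation that 0.683% of all tested genes had. Its log2 fold change was 0.96 ± 0.38 (SE) for homo over WT, with an unadjusted p of 0.0331 and an edgeR adjusted p of 1. For het over WT it was 1.05 ± 0.38, with an unadjusted p of 0.0225 and an edgeR adjusted p of 1.0. Acan was the member that passed without adjustment in both comparisons, which share the WT libraries.

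Col2a1, the main cartilage collagen, was at 132, 26.0 and 54.6 CPM in WT, at 227, 121 and 102 in het and at 354, 82.5 and 74.8 in homo. The genotypes overlapped, with WT replicate 2 the lowest of all libraries and homo replicate 1 the highest. Its log2 fold change was 1.27 ± 0.71 (SE) for homo over WT and 1.09 ± 0.71 for het over WT, with unadjusted edgeR p-values of 0.108 and 0.159. Single libraries decided these sizes. Without homo replicate 1 the Col2a1 fold change of homo over WT was 0.16 and that of Acan 0.64, and without WT replicate 2, which held the lowest Acan and Col2a1 values, that of Acan was 0.59 for homo and 0.69 for het, against 0.87 and 0.69 for Col2a1. With replicate number as a block, Col2a1 was at 1.17 ± 0.29 for homo over WT and 1.30 ± 0.29 for het over WT, with unadjusted p-values of 0.00349 and 0.00195 and edgeR adjusted p-values of 0.725 and 0.946.

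The remaining cartilage genes lay on the same side. Of 20 other genes of cartilage, 19 had a positive log2 fold change in homo over WT, with a median of 0.57 beside 0.00 for all tested genes, and 19 in het over WT, with a median of 0.47 beside -0.01. These genes mark the same tissue and were measured in the same libraries, so their counts are not independent observations. None of the 20 passed the adjusted test of edgeR in either comparison, whereas 7 and 4 had an unadjusted p under 0.05, beside 3.45% and 1.28% of all tested genes, and DESeq2 and limma-voom also called 0. Those counts ranged over libraries left out, from 3 and 2 without WT replicate 2 to 11 and 9 without WT replicate 3. With the replicate block they were 14 and 14, beside 6.61% and 3.39% of all tested genes, and 0 were called. Examples, chosen after their values were seen, are Lect1 (chondromodulin), a cartilage-specific secreted protein, at 1.01 ± 0.28 in homo and 0.79 ± 0.28 in het, and Col10a1, the collagen of hypertrophic cartilage, at 0.74 ± 0.34 and 0.93 ± 0.34. Matn3, an adaptor protein of cartilage matrix, was at 0.90 ± 0.53 and 1.17 ± 0.53. The exception was Sox9, the transcription factor of cartilage cells, at -0.09 ± 0.31 and -0.01 ± 0.31.

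Summed over those 20 genes, CPM was 1218, 852 and 1071 in WT replicates 1, 2 and 3, 1445, 1291 and 1234 in het and 1619, 1126 and 1239 in homo. WT and homo overlapped in this sum. The lowest het library, replicate 3 at 1234, was just above the highest WT library, replicate 1 at 1218. Col11a1 and Col11a2, with mean CPM of 368 and 325, weighed most in it. Without WT replicate 2 the median of the 20 was 0.30 for homo and 0.28 for het, and without homo replicate 1 the homo median was 0.27. With the replicate block the medians were 0.56 and 0.50. With Xist level as a covariate, chosen after seeing the data, they were 0.52 for homo and 0.33 for het. At least 17 of 20 genes stayed positive in each of these settings.

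**Figure D2:**
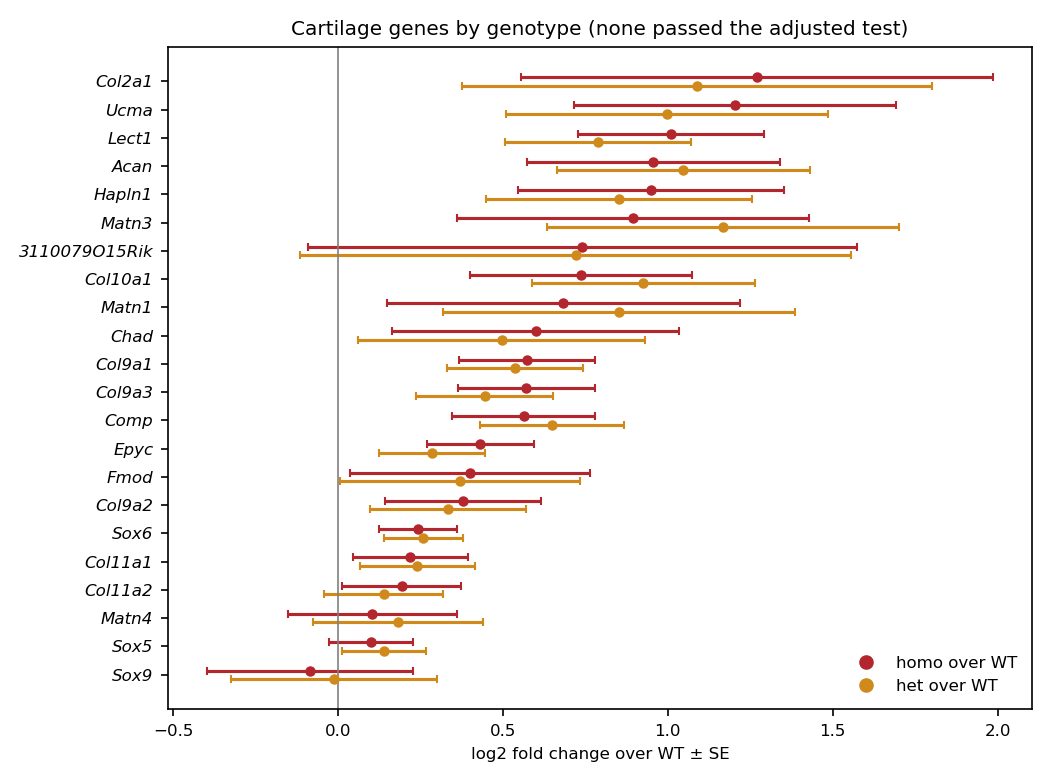
Log2 fold change over WT with its SE for Col2a1, Acan and 20 other cartilage genes, for homo (red) and het (orange), from edgeR over 3 libraries a genotype. All genes but Sox9 lie above 0 in both comparisons, which share the WT libraries, and none passed the adjusted test.

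The bone members showed no such offset. Ibsp, an early marker of mineralizing matrix, was at 814, 648 and 611 CPM in WT, at 808, 590 and 650 in het and at 957, 538 and 654 in homo. Dmp1, an osteocyte protein that controls mineral and phosphate, was at 219, 295 and 300 CPM in WT, at 206, 271 and 277 in het and at 249, 249 and 297 in homo. Genotypes overlapped in both genes. Their log2 fold changes of homo over WT were 0.05 ± 0.22 (SE) for Ibsp and -0.03 ± 0.16 for Dmp1, and those of het over WT were -0.02 ± 0.22 and -0.11 ± 0.16.

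Sp7, which acts after Runx2 and is needed for osteoblasts to form, was at 69.8, 55.3 and 57.5 CPM in WT, at 72.0, 59.6 and 52.0 in het and at 78.9, 55.5 and 60.4 in homo. Runx2, the master regulator of the osteoblast lineage, was at 81.8, 60.4 and 75.3 CPM in WT, at 81.8, 65.0 and 65.7 in het and at 84.3, 58.8 and 63.6 in homo. Here too the 3 genotypes covered the same range. The log2 fold changes of homo over WT were 0.09 ± 0.17 (SE) for Sp7 and -0.07 ± 0.17 for Runx2, and Bglap was at -0.12 ± 0.24. Of 15 other osteoblast and osteocyte genes, 0 passed between homo and WT with edgeR, DESeq2 or limma-voom, and 1 had an unadjusted edgeR p under 0.05. Between het and WT 0 passed with the same tools, and 0 had an unadjusted edgeR p under 0.05.

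**Figure D3:**
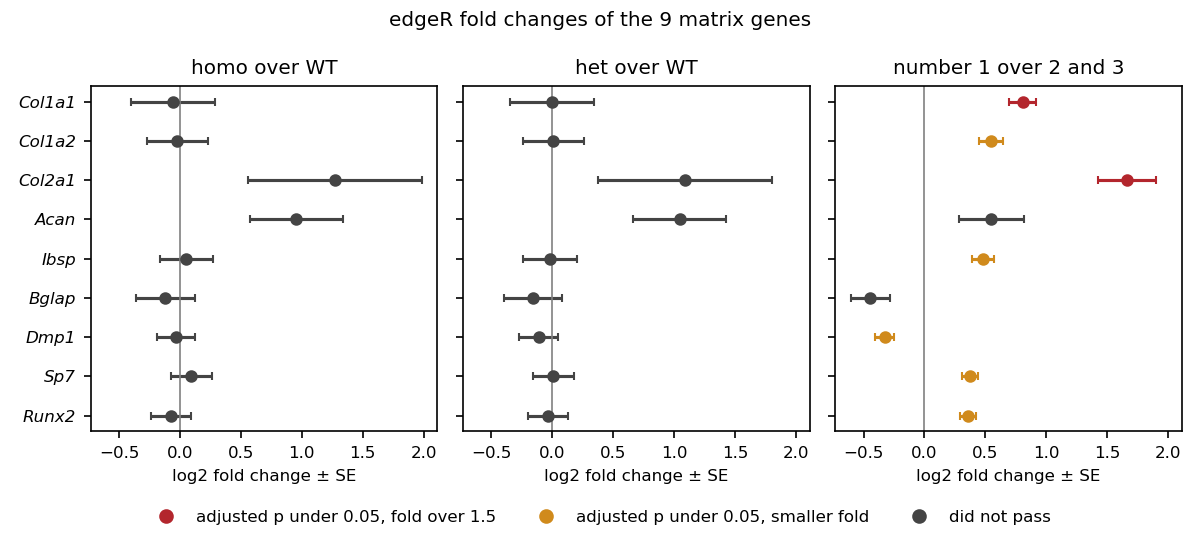
Log2 fold change with its SE for the 9 genes, from edgeR, for homo over WT, het over WT and replicate number 1 over the mean of numbers 2 and 3. In both genotype panels all members but Col2a1 and Acan lie close to 0 and none passed, while in the number panel Col1a1 and Col2a1 passed with a fold over 1.5 (red) and 5 others with a smaller one (orange).

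Replicate number, by contrast, went with most of the members. In a test for any difference between the 3 numbers with genotype in the model, 7 of 9 members had an edgeR adjusted p under 0.05, against 20.6% of all tested genes. The exceptions were Acan, with an edgeR adjusted p of 0.276, and Bglap, with 0.164. The count was 5 without WT replicate 1, 2 without het replicate 1 (Col1a1 and Col2a1) and 1 without homo replicate 1 (Col1a1). The share of all tested genes that passed fell in the same fits, to 8.73%, 3.63% and 5.05%.

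Number 1 was then compared with the mean of 2 and 3, a contrast chosen with earlier results of these data known. At an edgeR adjusted p under 0.05 and a fold over 1.5, 2 of 9 members passed, against 9.16% of all tested genes, and both were higher in number 1 (5.52% of all genes were called higher and 3.64% lower). By the adjusted p alone, 6 members were higher, against 16.6% of genes, and 1 was lower, against 14.1%. Number 1 was the highest library in each of the 3 genotypes for 6 members, as for 22.1% of tested genes, and the lowest in each for 0 members, as for 21.4%. Differences by number were thus spread over the whole transcriptome, and the members' counts are to be read beside these shares.

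Type I collagen was higher in number 1. For both chains number 1 was the highest library of each genotype, as for 22.1% of all tested genes. Col1a1 lay at 4710 to 5174 CPM in the 3 libraries numbered 1 and at 2492 to 3323 in the 6 others. This amounted to 0.81 ± 0.11 (SE) in log2 fold change (edgeR, adjusted p 0.00175). Col1a2 ran from 5118 to 5549 against 3259 to 4058 CPM, at 0.55 ± 0.10 (edgeR, adjusted p 0.00465). Its fold was just under 1.5, and it exceeded that without het replicate 1 or het replicate 2, with 0.62 in each case.

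Cartilage Col2a1 differed most among the members. It stood at 132 to 354 CPM in number 1 and at 26.0 to 121 in the others, and the ratio of number 1 to the mean of 2 and 3 was 3.26 in WT, 2.04 in het and 4.50 in homo. In log2 terms this was 1.66 ± 0.24 (SE, edgeR adjusted p 0.00197). Acan, at 0.55 ± 0.27 with an edgeR adjusted p of 0.158, was not past the threshold, and it passed without WT replicate 3, at 0.77 (edgeR, adjusted p 0.00874). Of the 20 other cartilage genes, 3 passed, all higher in number 1, beside 5.52% of all tested genes called higher. They were Sox9, 0.74 ± 0.10, Fmod, 0.88 ± 0.08 and Chad, 0.98 ± 0.17. The median of the 20 was 0.25 beside -0.02 for all tested genes. With the GC offsets described below it was 0.08, and 3 also passed. Lect1, described above for its genotype values, was at 0.01 ± 0.22 in the number contrast and did not pass.

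Bone genes lay on both sides in the number contrast. Ibsp was higher in number 1 at 0.48 ± 0.09 (SE, log2) with an edgeR adjusted p of 0.00535, which rose to 0.0502 without homo replicate 1. The transcription factors Sp7, at 0.37 ± 0.07, and Runx2, at 0.36 ± 0.07, were higher too, with edgeR adjusted p-values of 0.00441 and 0.00539. For Runx2 the 3 libraries numbered 1 lay close together, at 81.8 to 84.3 CPM, against 58.8 to 75.3 in the others. Dmp1 was lower in number 1, at -0.33 ± 0.08 with an edgeR adjusted p of 0.0152, and its groups met at one end, with 206 to 249 CPM against 249 to 300. The Dmp1 difference did not pass without WT replicate 1 (adjusted p 0.0993) or without het replicate 1 (adjusted p 0.110).

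Bglap, a late osteoblast gene, was at 40.9, 37.0 and 42.5 CPM in WT, at 27.0, 44.3 and 36.6 in het and at 24.1, 41.8 and 44.8 in homo. Number 1 was the lowest library in het and homo and between the others in WT. The log2 difference of number 1 was -0.45 ± 0.16 (SE, edgeR adjusted p 0.0669), and Bglap passed without WT replicate 1, at -0.71 with an edgeR adjusted p of 0.0107. The near copies were on the other side, Bglap2 at 0.31 ± 0.14 and Bglap3 at 0.48 ± 0.19, and neither passed. With the 3 genes summed the log2 difference was 0.02 (edgeR, adjusted p 0.899), so the Bglap value cannot be separated from how reads were divided among the copies.

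Other bone genes also lay on both sides. Of 15 other osteoblast and osteocyte genes, 3 passed as higher in number 1 and 4 as lower, with a median log2 fold change of 0.32. Over all tested genes the shares were 5.52% and 3.64%. Among those higher were Alpl, the alkaline phosphatase that osteoblasts use to start mineral growth, at 0.79 ± 0.08 (SE), Dlx5, a transcription factor of early osteoblasts, at 0.93 ± 0.07, and Smpd3, at 0.61 ± 0.08. Lower were Mepe, an osteocyte protein of the same gene cluster as Dmp1, at -1.68 ± 0.12, Phex, an osteocyte peptidase that acts in phosphate balance, at -0.89 ± 0.10, Sost (sclerostin), the osteocyte inhibitor of bone formation, at -0.72 ± 0.21, and Spp1 (osteopontin) at -0.69 ± 0.07. Mepe was at 6.71 to 7.70 CPM in number 1 and at 19.4 to 26.9 in the other libraries. By the adjusted p alone, 8 of the 15 were higher and 5 lower. With the GC offsets described below, 2 passed as higher and 3 as lower, with a median of 0.27. Smpd3, at 0.43, and Spp1, at -0.56, were then under the fold limit.

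Runx2 is known to bind DNA at a short core motif. The 250 bases before each RefSeq start were searched for TGTGGT and its reverse complement ACCACA (mouse GRCm38.p6). Of the members, 6 had an entry, with 7 start sites in all, and 3 windows held the motif once each, beside 14.045% of 32851 promoters. They are shown because they belong to 1 member that was higher in number 1 and to 2 whose values were lower, with the motif in capitals and each sequence read 5′ to 3′ along the gene, ending just before the start. Bglap (chr3:88384467-88384716, minus strand) held it 132 bases before its start, Dmp1 (chr5:104202367-104202616, plus strand) 164 bases before its second listed start and Runx2 (chr17:44814628-44814877, minus strand) 80 bases before its own.
Bglap: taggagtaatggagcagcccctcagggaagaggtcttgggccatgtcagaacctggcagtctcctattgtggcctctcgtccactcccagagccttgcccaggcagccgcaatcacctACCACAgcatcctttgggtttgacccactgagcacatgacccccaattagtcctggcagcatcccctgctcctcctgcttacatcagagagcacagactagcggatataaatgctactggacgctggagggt
Dmp1: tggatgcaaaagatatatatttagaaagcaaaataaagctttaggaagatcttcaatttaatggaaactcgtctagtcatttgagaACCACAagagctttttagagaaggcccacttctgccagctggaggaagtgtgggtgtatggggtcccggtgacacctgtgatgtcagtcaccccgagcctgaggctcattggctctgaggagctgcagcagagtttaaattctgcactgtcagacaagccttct
Runx2: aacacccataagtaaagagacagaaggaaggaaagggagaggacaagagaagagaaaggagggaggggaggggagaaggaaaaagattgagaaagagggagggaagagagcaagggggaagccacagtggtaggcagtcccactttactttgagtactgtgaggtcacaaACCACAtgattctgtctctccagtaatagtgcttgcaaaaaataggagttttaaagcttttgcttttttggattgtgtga
The windows of Col1a2, Acan, Ibsp and the first Dmp1 start held no match. A match is a string of letters only. The Bglap difference had an edgeR adjusted p of 0.0669, and Col1a1, Col2a1 and Sp7 had no entry. These few windows therefore cannot relate the motif to a direction in the number contrast.

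Genes that work on collagen were also partly higher in number 1. The counts below stand beside 5.52% of all tested genes called higher and 3.64% called lower. Of 17 collagen processing genes, 3 passed as higher and 0 as lower, led by Pcolce, which enhances removal of the procollagen end, at 0.94 ± 0.07 (SE, log2) and Crtap, part of the prolyl 3-hydroxylase complex, at 0.91 ± 0.09. Of 13 fibroblast matrix genes, 5 passed as higher, with a median of 0.51, the largest being Col6a2 at 1.08 ± 0.08, while with the GC offsets described below 1 passed (Col6a2) and the median was 0.42. Of 16 skeletal growth signals, 2 passed as higher, Fgf18 at 1.08 ± 0.19 and Bmp7 at 0.62 ± 0.09. With the GC offsets 2 passed as well, Fgf18 at 0.90 and Igf1 at 0.67, while Bmp7, at 0.44, did not. Of 12 osteoclast genes, which break bone down, 2 passed as higher (Mmp9, 0.81 ± 0.11 and Oscar, 0.59 ± 0.17) and 1 as lower (Calcr, -0.65 ± 0.21), with a median of 0.04. With the GC offsets 1 passed as higher (Mmp9) and 0 as lower, with a median of 0.11. Between homo and WT, 0 genes of these 4 lists were called with edgeR, DESeq2 or limma-voom, and 0 had an unadjusted edgeR p under 0.05.

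**Figure D4:**
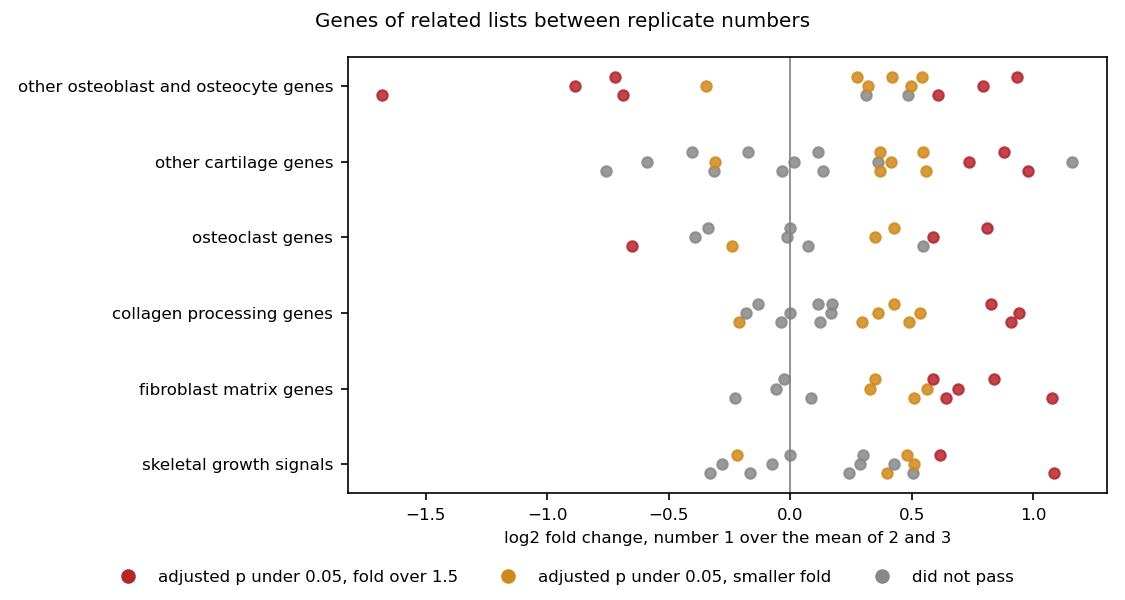
Log2 fold change of replicate number 1 over the mean of numbers 2 and 3 for each tested gene of 6 related lists, 1 point a gene, coloured by the edgeR test. The osteoblast and osteocyte list has called genes on both sides, from Mepe at -1.68 to Dlx5 at 0.93, while the called collagen processing and fibroblast matrix genes all lie above 0.

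Some markers of neighbouring tissue moved with replicate number as well. Their counts, from short lists, stand beside 5.52% of all tested genes called higher and 3.64% called lower. Of 7 tested skeletal muscle genes 5 passed as higher in number 1, with summed CPM of 10.9 to 19.99 against 2.72 to 4.08 for the whole list of 9. Of 6 tested tooth enamel and dentin genes 4 passed as higher, but the summed levels overlapped, at 6.53 to 40.7 against 2.65 to 29.5 CPM for the list of 8. The sum was mostly Odam, at 2.29 to 29.3 CPM over all libraries. Among those called, Amelx was at 8.73 CPM in WT replicate 1, at 0.331 and 0.0907 in het and homo replicate 1 and at 0 in the others, and Enam was at 0.736 in WT replicate 1 and at 0 in the other 8 libraries, so the values of Amelx and Enam rest on WT replicate 1. Dspp was at 1.37, 0.0473 and 0 CPM in WT, het and homo replicate 1 and at 0 in the others. Ambn was at 5.94, 1.80 and 0.907 CPM in WT, het and homo replicate 1. It was at 0.155 to 0.502 in the others, so number 1 was highest in each genotype. Of 8 bone marrow granulocyte genes 2 passed as lower, S100a8 and S100a9, with summed CPM of 690 to 1026 against 285 to 3500, the highest in WT replicate 3. That sum was mostly Ltf, at 155 to 2721 CPM over all libraries. Ltf was the 1 gene of the list with a positive log2 fold change, 0.65, and the list median was -1.66. Of 7 erythroid genes 4, all haemoglobin genes, were at 0 counts in all libraries, and none of the 3 tested passed. The part of these tissues, or of depth, in the number contrast was not tested.

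Base composition moved with replicate number too. Across 19019 tested genes with a GC value, Spearman's rho between transcript GC content and the number contrast was 0.38, a description over genes of the same libraries. The median log2 fold change ran from -0.29 in the lowest of 20 bins of GC content, at 36.7% GC, to 0.37 in the highest, at 61.3%. Col2a1, at 62.2% GC, and Col1a1, at 58.9%, are rich in GC, whereas Ibsp, at 45.2%, is not.

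With offsets that centred each library within those bins, added after the data had been seen, Col2a1 was at 1.32 ± 0.21 (SE, log2) and passed, and Col1a1 was at 0.55 ± 0.08, with an edgeR adjusted p of 0.00254 and a fold under 1.5. Col1a2 was at 0.37 ± 0.08, Sp7 at 0.23 ± 0.05, Runx2 at 0.32 ± 0.05 and Ibsp at 0.56 ± 0.08, all with an edgeR adjusted p under 0.05. On the lower side Dmp1 was at -0.36 ± 0.07 with an edgeR adjusted p of 0.00824, and Bglap passed at -0.62 ± 0.15 with 0.0195. The fold change of all 9 members had the same sign with and without the offsets, and Mepe, at -1.68 ± 0.11, was as low as before. Between genotypes 0 members passed with these offsets, and Acan was at 0.99 ± 0.33 for homo over WT with an unadjusted p of 0.0155 and an edgeR adjusted p of 1.

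**Figure D5:**
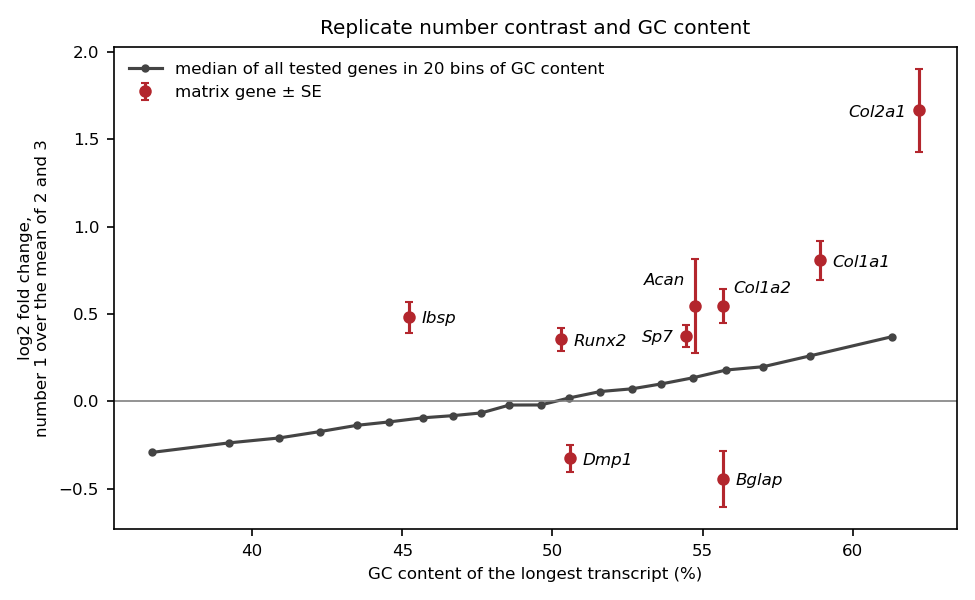
Log2 fold change of replicate number 1 over the mean of numbers 2 and 3 against GC content of the longest transcript, with the 9 genes as points with their SE and the median of all tested genes in 20 bins of GC content as a line. The line rises from -0.29 to 0.37, and 7 members lie above it while Bglap and Dmp1 lie below.

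The genes whose log2 CPM ran most like each group over the 9 libraries were found among 16123 others, by Pearson's r with the mean z score of the group, as a description in which libraries share depth and replicate number. For the cartilage pair they were Col9a3 (r = 0.97), Chad (0.95), Col9a1 (0.95), Wscd2 (0.94) and Mfi2 (0.94), of which the first 3 are cartilage matrix genes from the list above. For type I collagen they were Igdcc4, Prr14, Paqr4, Ptrf and Mrps2, with r of 0.99 each and none of them from the matrix lists. For the 5 bone members they were Zfp105, Mrgprf, Nosip, Prkca and Naaladl1, with r of 0.93 to 0.95. The 5 genes most like Col1a1 and Col1a2 were all higher in number 1 with an edgeR adjusted p under 0.05, such as Paqr4 at 0.63 ± 0.11 and Igdcc4 at 0.55 ± 0.10 (SE, log2).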

How the data were processed

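Whole MOE RNA of 9 samples was sequenced after polyA selection with a strand-specific kit. Per the labels and the methods, reads were trimmed with Trimmomatic 0.36, mapped to mm10 with HISAT2 2.1.0 and counted per gene with featureCounts (Subread 1.6.2). The authors deposited raw counts and a signal, normalized counts, which are raw counts divided by 1 DESeq2 1.20.0 size factor per library (recomputed here, 0.806 to 1.28). The annotation release, strand setting and treatment of shared reads are not given in the sources used here.

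Raw counts were tested in edgeR 4.0.16 (R 4.3.3) by its quasi-likelihood test (TMM, at least 10 counts summed, 19775 genes, Benjamini-Hochberg adjustment over all of them), with genotype as the term for genotypes, and replicate number plus genotype for replicate numbers. A gene was called at an adjusted p under 0.05 and a fold over 1.5, or by adjusted p alone in tests with several degrees of freedom. p-values measure the spread between these libraries. DESeq2 1.42.0, limma-voom (limma 3.58.1), other scalings and filters, each library left out, a replicate block, replicate numbers 2 and 3 alone, Xist level as a covariate and GC offsets were alternatives. The code was tested on simulated data.

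Gene lengths, GC content (longest transcript), exons and positions are from GENCODE vM21 (GRCm38), and promoters from RefSeq. The 9 members and all lists were chosen with earlier results of these data known, and the number contrast too. Named genes were the members, Bglap2 and Bglap3, and for each list the called genes, at most the 4 with the smallest p in the number contrast, plus the gene of highest CPM. Examples outside this rule are marked in the text as chosen after their values were seen. Cnmd was matched as Lect1 and Snorc as 3110079O15Rik. Lists of 5 sustentacular, 6 ciliated respiratory, 5 olfactory glia and 8 mature olfactory neuron genes held 0, 2, 3 and 1 called genes in the number contrast. Over all tested genes 9.16% were called in it.

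Same-numbered libraries deviated together between WT and het (r of 0.67, 0.45 and 0.61 over genes). Between het and homo the values were 0.79, 0.32 and 0.13, and between WT and homo 0.52, 0.29 and -0.095. Libraries of different numbers reached 0.58 (het replicate 2 with homo replicate 3) and 0.52 (het replicate 3 with homo replicate 2). WT replicate 2 with homo replicate 3 was at 0.51. Pairing by number was thus seen between WT and het, and with homo for number 1 only.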

Additional observations from a re-analysis of the deposited data

How the results depend on the processing

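The 9 genes gave 879 values under alternatives. No alternative called a member between genotypes, and Col1a1 and Col2a1 passed in the number contrast in all but 1, the GC offsets, where Col1a1 had a fold under 1.5 (0.55). The count of members in the test for any replicate number ranged from 1 to 8 over the fits that left out 1 library, and its low values were 2 without het replicate 1 and 1 without homo replicate 1, where calls over all genes were 714 and 993, against 4079 with all libraries. Each genotype has 3 libraries, and 2 where 1 is left out. All members were well above the floor of 3 counts, and the part of depth in the precision was not tested.

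Small genotype differences changed sign, and their cause was not tested. All values here are log2 fold changes. With limma-voom Col1a1 het over WT was 0.029 and Col2a1 homo over het -0.13. With library totals Col1a1 het over WT was 0.020 and Ibsp 0.0041. With replicate numbers 2 and 3 alone, Bglap homo over WT was 0.12 and Ibsp -0.083, het over WT was 0.12 for Col1a1, 0.027 for Bglap and -0.0115 for Sp7, and homo over het was -0.51 for Col2a1, -0.064 for Ibsp and -0.011 for Dmp1. With Xist level as a covariate, chosen after seeing the data, het over WT was -0.061 for Col1a2 and -0.038 for Sp7, and homo over het was 3e-04 for Col1a1, 0.016 for Col1a2, -0.11 for Bglap and 0.031 for Runx2. With GC offsets Col1a1 het over WT was 0.050. With Bglap, Bglap2 and Bglap3 summed, Bglap in the number contrast was 0.021.

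With the replicate block, 0 members were called between genotypes, and the block changed no call of a member. Under it Col1a1 het over WT was 0.036 and Col2a1 homo over het -0.13, and with the block and GC offsets together they were 0.072 and -0.14.

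Leaving out 1 library in turn moved homo over WT from -0.40 to 0.33 for Col1a1, -0.25 to 0.23 for Col1a2, -0.28 to 0.11 for Bglap, -0.21 to 0.21 for Ibsp, -0.15 to 0.036 for Dmp1, -0.068 to 0.22 for Sp7 and -0.24 to 0.0355 for Runx2. Het over WT ran from -0.25 to 0.38 for Col1a1, -0.14 to 0.26 for Col1a2, -0.32 to 0.0105 for Bglap, -0.16 to 0.13 for Ibsp, -0.23 to 0.014 for Dmp1, -0.12 to 0.13 for Sp7 and -0.15 to 0.0775 for Runx2. Homo over het ran from -0.41 to 0.20 for Col1a1, -0.27 to 0.12 for Col1a2, -0.94 to 0.61 for Col2a1, -0.41 to 0.074 for Acan, -0.13 to 0.26 for Bglap, -0.20 to 0.23 for Ibsp, -0.046 to 0.15 for Dmp1, -0.084 to 0.22 for Sp7 and -0.22 to 0.076 for Runx2.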
